A study of Danio rerio with 12 samples.

Results

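The genes described here are the zebrafish TGF-beta ligand genes tgfb1a (ENSDARG00000041502), tgfb1b (ENSDARG00000034895), tgfb2 (ENSDARG00000027087) and tgfb3 (ENSDARG00000019367), together with acvrl1 (ENSDARG00000018179), the gene of a TGF-beta family receptor of endothelium. They were selected by gene symbol, with the differences between genotypes in these same tables already known, so their genotype differences are given as descriptions with no p-value, and the calls they received in the fit over all genes support nothing. All 5 symbols were found, among 31172 gene rows in the table of each stage, and all 5 passed the filter on low values, set on the row's median over the 6 libraries, at both stages. RNA was sequenced from whole zebrafish embryos that carried the knock-in allele etv2 Gt(2A-Gal4)ci32, in which a 2A-Gal4 cassette sits at etv2, an ETS-family transcription factor gene needed for endothelial and early blood development. The parents were carriers of the knock-in with a UAS:GFP reporter, and their offspring were sorted by GFP pattern into heterozygous embryos, with 1 mutant copy, and homozygous embryos, with 2. Every group therefore carries the knock-in, and no library is from embryos without it. Embryos were collected at the 15-somite stage after rearing at 24 °C, or at 24 hpf (hours post fertilization) after rearing at 28 °C. Each of the 12 libraries pooled a batch of 15 to 20 embryos, with 3 libraries per genotype and stage.

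TGF-beta ligands are secreted in a latent form bound to their own propeptide and, once released, bring together type II and type I receptor kinases, which phosphorylate Smad proteins that carry the signal to the nucleus. The zebrafish has a pair of copies of the TGFB1 gene, tgfb1a and tgfb1b, and single tgfb2 and tgfb3 genes. In mammals TGFB1 acts on vessel wall formation, immune cells and matrix, TGFB2 on heart valve and skeletal development, and TGFB3 on fusion of the palate. The product of acvrl1, also called Alk1, is a type I receptor of endothelial cells that responds to the ligands BMP9 and BMP10. Loss of acvrl1 in zebrafish gives enlarged cranial vessels, and mutations of human ACVRL1 cause hereditary haemorrhagic telangiectasia.

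Levels are given as a percent of the heterozygous geometric mean at the same stage, and differences as log2 of homozygous over heterozygous with the standard error (SE) of the fit, n = 3 libraries per genotype. The deposited values were centred on each gene's own median, so by themselves they do not compare a gene's level with another gene's or between stages. Only coarse bounds on a gene's median before centring can be read from the stored digits. Heterozygous libraries are called het 1 to het 3 and homozygous ones hom 1 to hom 3. At the 15-somite stage a pair of homozygous columns carried the same name, and these are called hom a and hom b beside hom 2. In each stage's table the leading principal component (42.6% of variance for 15-somite embryos, 28.6% for 24 hpf) set the genotypes apart. The targeted gene etv2 stood at 12.9% to 16.3% in the homozygous libraries of the 15-somite stage and at 7.40% to 13.99% in those of 24 hpf. Without counts in the tables, the depth of each library is unknown.

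Among the ligand genes, tgfb1b was the 1 that stood far lower in homozygous embryos. At the 15-somite stage it measured 105% in het 1, 71.6% in het 2 and 134% in het 3, against 20.1% in hom 2, 30.3% in hom a and 20.2% in hom b. The highest homozygous library lay well below the lowest heterozygous one, although the heterozygous libraries were themselves widely spread. The difference was -2.11 (SE 0.29), a 4.33-fold lower level, and only 0.351% of the 18530 genes tested at this stage had a lower one. The stored digits place this row's median below 37.0 of the authors' normalized units, which are not per gene length. The same digits place hom b, and with it the slightly lower hom 2, under the filter level of 16. The fold thus rests in part on homozygous values below that level, and whether hom a lay below it is not known. In bulk RNA from whole embryos, fewer cells that express a gene and less of its RNA per cell cannot be told apart.

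At 24 hpf tgfb1b was again low in every homozygous library, and the libraries of each genotype lay close together. It measured 97.6%, 99.2% and 103% in het 1, het 2 and het 3, and 37.7%, 37.4% and 38.2% in hom 1, hom 2 and hom 3. The SD on the log2 scale was 0.043 among heterozygous and 0.016 among homozygous libraries, against 0.45 and 0.34 at the 15-somite stage. The difference was -1.41 (SE 0.05), a 2.65-fold lower level, with 0.412% of 19194 genes lower. As measured, the genotype difference was smaller at 24 hpf by 0.71 (SE 0.31). Leaving out 1 library at a time moved this stage difference between 0.50 and 0.95. Embryos of the stages were also reared at different temperatures, and the values of each stage came in a separate table. For every stage difference given here, stage therefore cannot be told apart from temperature or from the separate processing.

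Its paralogue tgfb1a showed no such separation. In 15-somite embryos tgfb1a measured 80.04%, 119.8% and 104% in het 1 to het 3, and 104%, 88.6% and 98.7% for hom 2, hom a and hom b, so the homozygous values fell inside the heterozygous range. At 24 hpf the values were 87.8%, 94.3% and 121% in het 1 to het 3 and 101%, 97.1% and 95.5% in hom 1 to hom 3, again inside that range. The differences were -0.04 (SE 0.21) and -0.03 (SE 0.12). The ratio of tgfb1b to tgfb1a within a library is free of any scaling shared by both genes. Relative to its heterozygous mean, this ratio ran from 59.7% to 131% in heterozygous and from 19.3% to 34.2% in homozygous libraries at the 15-somite stage. At 24 hpf the ranges were 85.6% to 111% and 37.2% to 40.01%. On the log2 scale the ratio differed by -2.07 (SE 0.45) and -1.38 (SE 0.12), where the SE comes from the spread of the ratio itself.

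**Figure D1:**
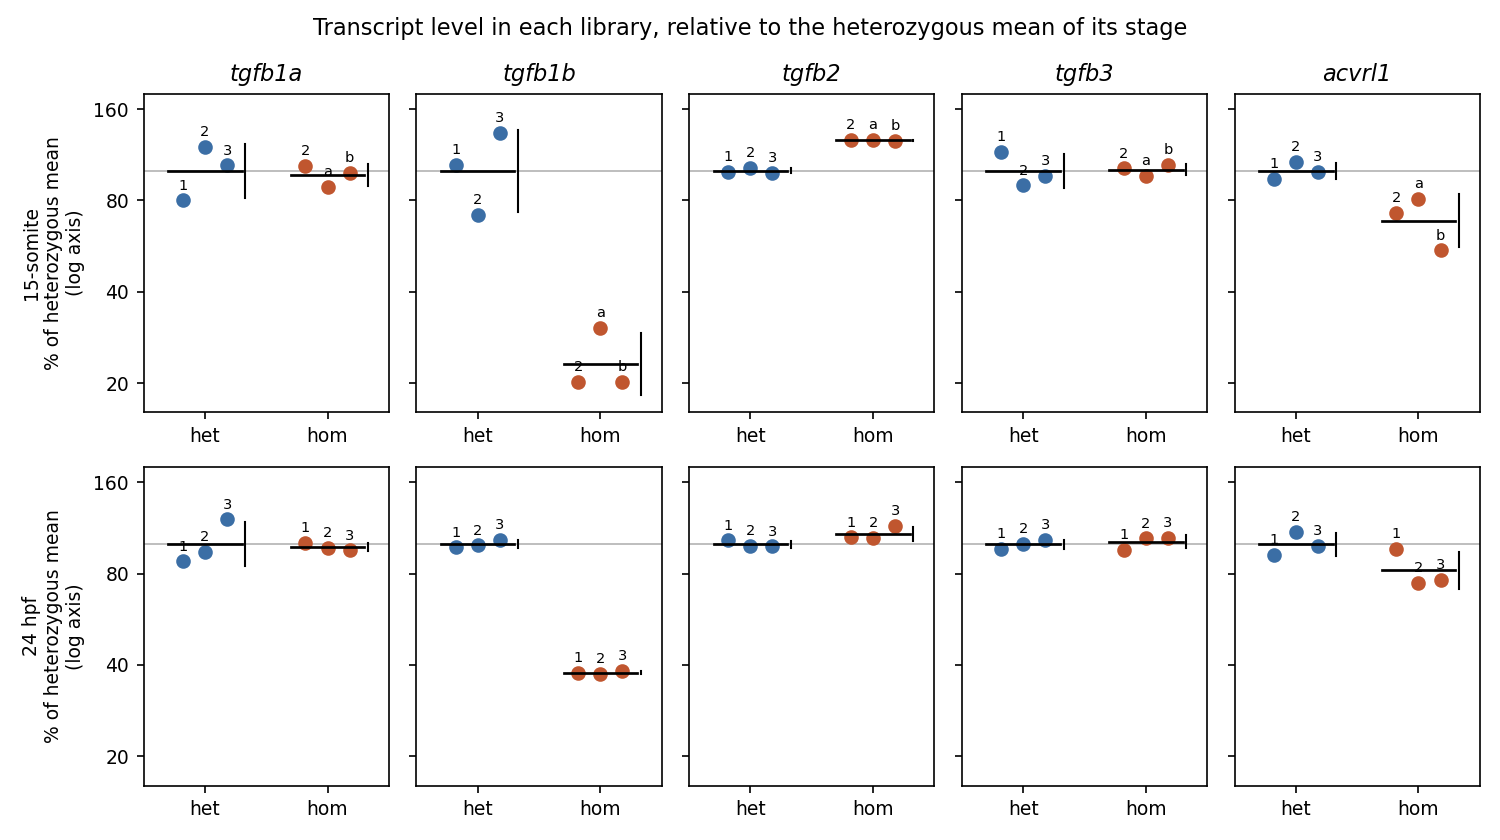
Level of each of the 5 genes in every library as a percent of the heterozygous geometric mean of its stage (log axis), with heterozygous libraries in blue and homozygous in orange. Numbers and letters name the libraries, black horizontal lines are group means and vertical bars 1 SD on the log2 scale; tgfb1b lies at 20.1% to 30.3% in homozygous libraries of the 15-somite stage and at 37.4% to 38.2% at 24 hpf.

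The ligand gene tgfb2 was slightly higher in homozygous embryos. At the 15-somite stage it measured 99.4%, 102% and 98.4% in het 1 to het 3, and 126%, 126% and 126% for hom 2, hom a and hom b. All homozygous libraries lay above all heterozygous ones, and the homozygous libraries differed among themselves by less than 1 percentage point. The difference was 0.33 (SE 0.06), a 1.26-fold higher level, a size that 21.8% of all tested genes reached or exceeded in either direction. At 24 hpf the values were 103%, 98.7% and 98.4% in het 1 to het 3 and 105%, 105% and 115% in hom 1 to hom 3. The groups were still separate, but the gap was small, with a difference of 0.11 (SE 0.06). Its stage difference was -0.22 (SE 0.07). In the RefSeq annotation of assembly GRCz12tu, tgfb2 lies on chromosome 16, as does etv2, and the genes are more than 5 Mb apart. The genes tgfb1a, tgfb1b, tgfb3 and acvrl1 lie on other chromosomes. Whether sequence inherited together with the etv2 allele affects tgfb2 was not tested.

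The remaining ligand gene, tgfb3, was level between the genotypes. It measured 116%, 89.7% and 96.4% in het 1 to het 3 and 102%, 96.4% and 105% for hom 2, hom a and hom b at the 15-somite stage. At 24 hpf it measured 96.5%, 100.4% and 103% in het 1 to het 3 and 96.0%, 105% and 105% in hom 1 to hom 3. The groups overlapped at both stages. The differences were 0.01 (SE 0.10) and 0.03 (SE 0.06), and the stage difference was 0.01 (SE 0.12).

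The receptor gene acvrl1 was moderately lower in homozygous embryos at the 15-somite stage. It measured 94.3%, 107% and 99.2% in het 1 to het 3, and 72.7%, 81.0% and 54.7% for hom 2, hom a and hom b. The groups were separate, and hom b was the lowest of the homozygous libraries. The difference was -0.54 (SE 0.14), a 1.46-fold lower level, with 6.21% of tested genes lower. At 24 hpf the values were 92.2%, 109.6% and 99.0% in het 1 to het 3 and 96.4%, 74.8% and 76.3% in hom 1 to hom 3. Here hom 1 lay within the heterozygous range while hom 2 and hom 3 lay below it. The difference was -0.29 (SE 0.11), with 6.94% of tested genes lower, and it differed from that of the 15-somite stage by 0.26 (SE 0.19). This stage difference was 0.09 without hom b of the 15-somite stage, 0.14 without hom 1 of 24 hpf, and at most 0.38 when any 1 library was left out.

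**Figure D2:**
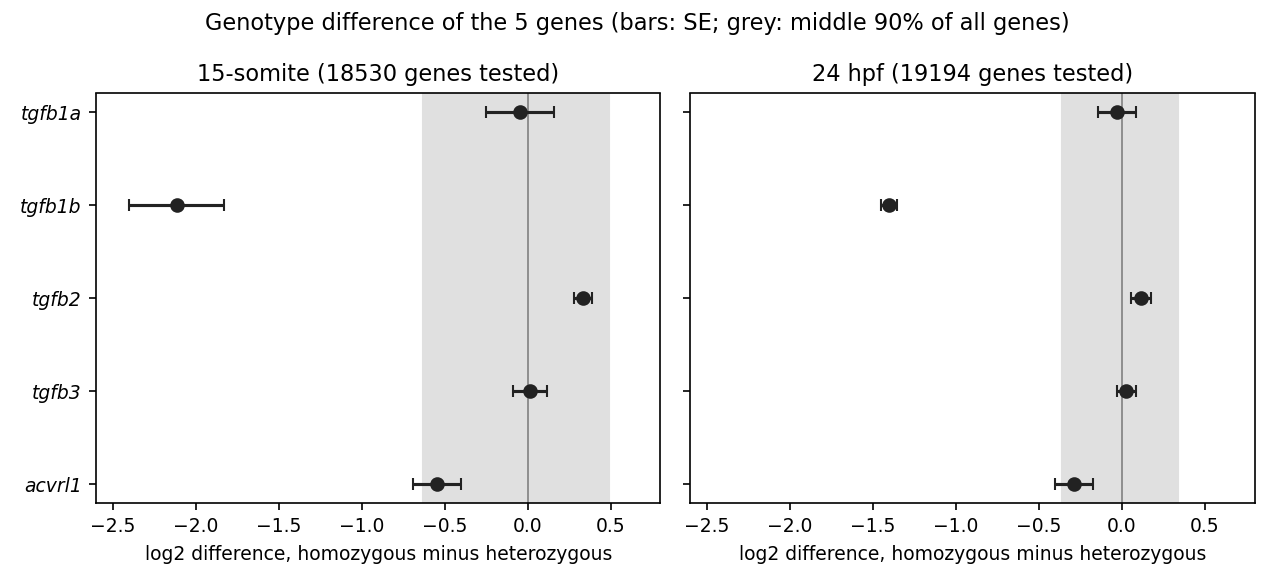
Difference of each gene, log2 of homozygous over heterozygous, in 15-somite embryos (left) and 24 hpf (right), with bars for the SE and a grey band for the middle 90% of the differences of all tested genes. Only tgfb1b, at -2.11 and -1.41, lies outside the band at either stage.

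The order of the 5 differences was the same at both stages: tgfb1b lowest, then acvrl1, tgfb1a, tgfb3 and tgfb2. The neighbours tgfb1a and tgfb3 differed by less than their SEs at both stages. Of the 5 genes, 3 had separate groups at the 15-somite stage (tgfb1b, acvrl1 and tgfb2) and 2 at 24 hpf (tgfb1b and tgfb2), where 29.0% and 12.7% of all tested genes had separate groups. In limma's moderated test over all genes, with Benjamini-Hochberg adjustment and a call at an adjusted p below 0.05, 2 of the 5 were called at the 15-somite stage, tgfb1b as lower and tgfb2 as higher. At 24 hpf 1 was called, tgfb1b. The shares of all tested genes called were 4.50% and 0.328%. For the difference between stages 0 of the 5 were called by limma, where 3.73% of 17725 genes were called. At an unadjusted p below 0.05 by limma lay 2 of the 5, and the share of all genes at that threshold was not counted. The calls and this count rest on the contrast that the choice of the genes already knew, and nothing is read from their number. In 15-somite embryos the call of tgfb1b was lost without het 3 (difference -1.91), and that of tgfb2 without any 1 of het 2, het 3, hom 2, hom a and hom b (0.32 to 0.35) and with 1 prior spread for all genes. In 1 fit of all 12 libraries acvrl1 was called as well.

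Markers of endothelium were lower in the same libraries as tgfb1b. For marker and pathway genes, fell and rose, and passed where no filter is named, mean a call at an adjusted p below 0.05. These genes were also listed with earlier results of these data known, so their calls are not independent of that choice. Of 11 endothelial marker genes tested, 11 fell at the 15-somite stage and 8 at 24 hpf, with 0 rising. Of all tested genes 3.64% and 0.292% fell at these stages, and 0.863% and 0.0365% rose. All 11 lay below 0 at both stages, with an unadjusted p below 0.05 by limma. As the share of all genes at that unadjusted threshold was not counted, nothing is read from this count. The median differences of these 11 markers were -2.16 and -1.54. Single markers were widely spread, from -4.76 to -0.83 at the 15-somite stage and from -2.91 to -0.39 at 24 hpf. The stage differences of these markers had a median of 0.69, with 4 called as higher, 0 as lower and 2 below 0. Of all genes tested at both stages 3.73% were called for that difference in either direction. Over these markers the median level ran from 93.5% to 107% in heterozygous and from 18.6% to 28.6% in homozygous libraries at the 15-somite stage, where tgfb1b spanned 20.1% to 30.3%. The libraries did not keep the same order there, since hom a had the lowest marker median (18.6%) and the highest tgfb1b (30.3%), and hom b had the highest marker median (28.6%) with tgfb1b at 20.2%. At 24 hpf the marker medians ran from 95.8% to 106% and from 29.9% to 43.3%, with tgfb1b at 37.4% to 38.2%. The values of acvrl1 were different. Its difference of -0.54 at the 15-somite stage was nearer 0 than that of each of the 11 markers, of which esama, an endothelial adhesion gene, was nearest at -0.83. At 24 hpf it was -0.29, where the nearest marker, the ETS factor gene fli1a, stood at -0.39 without a call. The ratio of tgfb1b to acvrl1 ran from 27.7% to 37.4% of its heterozygous mean in homozygous libraries of the 15-somite stage and from 39.1% to 50.1% in those of 24 hpf.

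Some markers of other cells also differed between the genotypes. Of the macrophage and neutrophil markers, 4 of 8 were tested at the 15-somite stage and 0 passed, with 3 lower at an unadjusted p below 0.05; of the 7 tested at 24 hpf, 3 fell, namely mfap4, lyz and lcp1. Their median level in homozygous libraries was 68.8% to 76.2% in 15-somite embryos and 23.4% to 40.7% at 24 hpf, against 93.8% to 139% and 93.7% to 104% in heterozygous libraries. Of 5 epidermal markers 4 fell at the 15-somite stage, with a median level of 75.5% to 79.6% in homozygous libraries, and 0 passed at 24 hpf, where none lay below an unadjusted p of 0.05. Of 6 skeletal muscle markers 1, ttnb, rose at the 15-somite stage, and 0 passed at 24 hpf. The notochord (3), nervous system (5), heart (4), red cell (5), mural and fibroblast (4) and thrombocyte (1) markers tested had no call at either stage. In these lists 2 notochord, 2 nervous system and 2 red cell markers were higher and 1 heart marker lower at an unadjusted p below 0.05 at the 15-somite stage, and 4 red cell and 3 heart markers higher and 1 nervous system marker lower at 24 hpf. Among the macrophage markers, the row median of mpeg1 lay below 4 normalized units at both stages and that of mfap4 at the 15-somite stage, and these were not tested there. The share of all genes at an unadjusted p below 0.05 was not counted, so nothing is read from the counts at that threshold in these lists. The part of each cell type in the differences of the 5 genes was not tested.

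**Figure D3:**
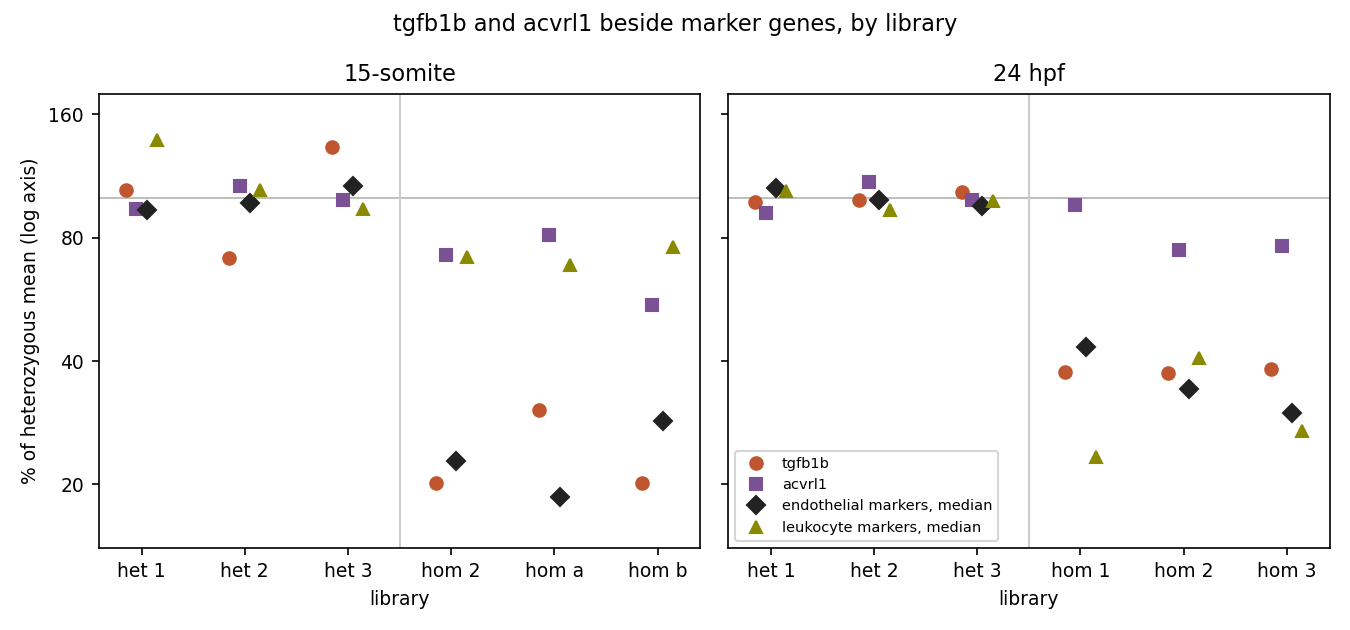
Level in each library, as a percent of the heterozygous geometric mean on a log axis, of tgfb1b, acvrl1 and the medians of the tested endothelial markers and of the tested macrophage and neutrophil (leukocyte) markers; the grey vertical line divides heterozygous from homozygous libraries. In homozygous libraries the endothelial medians lie at 18.6% to 28.6% and 29.9% to 43.3% and tgfb1b at 20.1% to 30.3% and 37.4% to 38.2%. There acvrl1 lies above the endothelial medians at both stages, at 54.7% to 81.0% and 74.8% to 96.4%. In hom b of the 15-somite stage acvrl1 (54.7%) lies below the leukocyte median (76.2%).

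Genes with the pattern most like each of the 5 were found by the root mean square difference of centred log2 values over the 12 libraries, among 17724 other genes tested at both stages, as a description. For tgfb1b the 3 nearest genes with a descriptive symbol were flt4, the receptor gene for VEGF-C of veins and lymphatics, at a distance of 0.23, sox18, a SoxF transcription factor gene of endothelium, at 0.24, and the adaptor gene she at 0.26. Their differences were -2.07, -2.44 and -2.38 at the 15-somite stage and -1.45, -1.02 and -1.03 at 24 hpf. Only 2 of all the genes compared lay within 0.25 of tgfb1b, where 1618 lay that near to acvrl1 and 10471 to tgfb1a. The root mean square of each gene's own values was 0.93 for tgfb1b, 0.28 for acvrl1 and 0.17 for tgfb1a. These counts thus depend on how far a gene's values lie from 0, and mark no pattern as particular to tgfb1b. The nearest to acvrl1 were LPHN1 (4 of 4), a latrophilin-type receptor gene, at 0.09, PLOD3 (2 of 2), a collagen-modifying enzyme gene, at 0.11 and dhrs13a.1, a dehydrogenase family gene, at 0.13. Their differences at the 15-somite stage were -0.60, -0.45 and -0.51, and each had its lowest value in hom b, as acvrl1 did. All the genes named here were chosen for nearness over these same values, so such likeness follows from the choice. None of the 3 nearest to acvrl1 was an endothelial marker of the list used here. Within 0.25 of tgfb1a, tgfb2 and tgfb3 lay 10471, 11692 and 12276 genes, with flj11011l (0.09), cux1a (0.05) and hnrnpa0l (0.04) the nearest. The root mean square of their own values was 0.17, 0.13 and 0.09, below that limit. A gene flat across all libraries would thus count as near, so no shared pattern is read from these counts.

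The other genes of TGF-beta and BMP signalling were compared between the genotypes across 7 lists written by function. These lists, too, were written with earlier results of these data known. Of 107 symbols, 98 had a row, giving 99 rows, of which 82 entered the test in 15-somite embryos and 86 at 24 hpf. In 15-somite embryos 2 of the 82 fell and 0 rose, where 3.64% of all tested genes fell and 0.863% rose. At an unadjusted p below 0.05, 7 of the 82 were lower and 5 higher. At 24 hpf 0 of the 86 passed by limma, where 0.292% of all genes fell and 0.0365% rose. There 1 of the 86 was lower and 5 higher at an unadjusted p below 0.05. The median differences were 0.02 and -0.02, beside 0.003 and 0.002 over all genes tested. For the difference between stages 0 of 81 passed by limma, and 3 were lower and 7 higher at an unadjusted p below 0.05. The share of all tested genes below that unadjusted threshold was not counted, so nothing is read from the unadjusted counts of pathway genes.

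The first of the genes that passed was tgfbr2, the gene of the type II receptor that binds TGF-beta and activates its type I partners. It measured 102%, 94.7% and 104% in het 1 to het 3 and 81.0%, 73.7% and 82.4% for hom 2, hom a and hom b at the 15-somite stage. It fell by 0.34 in log2 units (SE 0.07, adjusted p = 0.0481 by limma), with the groups separate. The call was lost whichever library was left out (adjusted p 0.0960 to 0.151), with 1 prior spread for all genes (0.102) and with no filter on level (0.0614). At 24 hpf it stood at -0.30 (SE 0.11, adjusted p = 0.653), with 88.3%, 109.8% and 103% in the heterozygous and 90.5%, 73.5% and 81.2% in the homozygous libraries. The other copy in the tables, TGFBR2 (2 of 2), was below the level filter. Among the type I receptor genes of TGF-beta, tgfbr1a and tgfbr1b stood at 0.24 and 0.50 at the 15-somite stage without passing. The receptor list had 16 tested genes, with a median of 0.12 at the 15-somite stage and 0.03 at 24 hpf.

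The other gene that passed was dvr1 (current symbol gdf3), the gene of a Vg1-type ligand that acts with Nodal in early germ layer formation. It measured 106%, 92.7% and 102% in het 1 to het 3 and 69.6%, 62.3% and 48.8% for hom 2, hom a and hom b. It fell by 0.75 at the 15-somite stage (SE 0.13, adjusted p = 0.0291 by limma), and the call was lost without het 1, het 2, het 3 or hom a (adjusted p 0.0870 to 0.0933) and with 1 prior spread for all genes (0.0712). At 24 hpf it stood at 0.34 without passing, and its stage difference came to 1.09 (SE 0.28, adjusted p = 0.0563 by limma). The ligand genes that bind acvrl1, gdf2 (BMP9) and bmp10, were below the level filter at both stages and were not tested. Among the 6 BMP-type ligand genes tested 0 passed, and those furthest from 0 were bmp7a (-0.34) and bmp2a (-0.29) at the 15-somite stage.

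The lists of Smads, storage and activation genes, inhibitors and transcriptional targets held no call. Of 7 Smad genes, which carry the signal to the nucleus, 0 passed, and their medians were 0.03 and -0.05. The furthest from 0 were smad3b at 0.37 and smad3a at 0.17 at the 15-somite stage, and these stood at -0.18 and -0.07 at 24 hpf. Among genes that store or release the latent ligand, 11 passed the level filter in 15-somite embryos and 12 at 24 hpf. THBS1 (2 of 2), a thrombospondin gene, stood at -0.38 and -0.16. The product of lrrc32 holds latent TGF-beta on the cell surface in mammals. This gene stood at -0.50 (SE 0.38) at 24 hpf and was not tested at the 15-somite stage. Its value at 24 hpf rests on hom 2 (37.3%), with hom 1 at 102% and hom 3 at 92.4%. Of 18 and 19 inhibitor genes none passed, with the BMP antagonist gene nog3 at 0.89 at 24 hpf (SE 0.30, adjusted p = 0.623 by limma). Transcriptional targets had a median of -0.15 over 19 genes at the 15-somite stage, 15 of them below 0, and -0.04 over 21 genes at 24 hpf. The AP-1 gene junba stood at -0.75 (SE 0.21, adjusted p = 0.0975 by limma) at the 15-somite stage. The matricellular protein gene ctgfb stood at 0.41 (SE 0.37) at 24 hpf, with hom 2 at 85.8% and hom 1 and hom 3 at 186% and 146%. Its heterozygous libraries were also widely spread, at 130%, 63.7% and 121% in het 1 to het 3. In 15-somite embryos 2 of the targets lay below 0 with an unadjusted p under 0.05, and at 24 hpf 2 lay above 0.

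**Figure D4:**
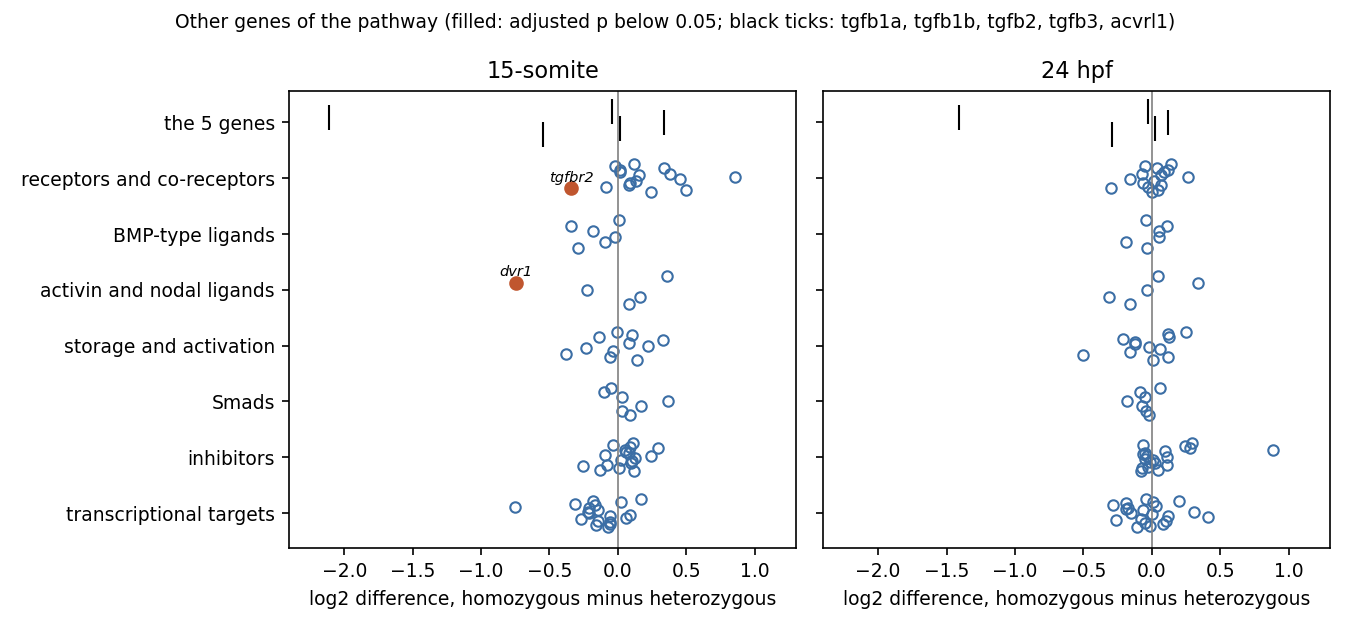
Differences, log2 of homozygous over heterozygous, of the tested genes of 7 pathway lists in 15-somite embryos (left) and 24 hpf (right), with 1 circle per gene. Filled circles passed at an adjusted p below 0.05 (tgfbr2 at -0.34 and dvr1 at -0.75), and black ticks in the top line mark tgfb1a, tgfb1b, tgfb2, tgfb3 and acvrl1.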

How the data were processed

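The authors deposited, for each stage, a table of log2 normalized values; per the submitters' processing notes the authors used DESeq and genome build Zv9. Their aligner, counter, annotation, strand handling and tool versions are not stated in those notes. From the values, each row was floored at 1 before the log and centred on its median over 6 libraries. Each row's median level before centring was classed from the binary step of its stored numbers, a method checked on simulated data, and only rows with a median of at least 16 entered the tests (18530 for 15-somite embryos, 19194 for 24 hpf). The fit used limma 3.58.1 (R 4.3.3) and no block, with the prior spread estimated within level classes (16 to 256, and 256 or above) and Benjamini-Hochberg adjustment over all rows, two-sided. The stage difference was an interaction over 17725 rows. The p-values measure the spread between libraries, each a batch of embryos.

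The 5 genes and all lists were chosen with earlier results of these data known. Other pathway genes were named if called at either stage or between stages, and otherwise the 2 furthest from 0 of each list; 1 gene that the rule names is not reported here. Names came from the files and RefSeq (GRCz12tu) synonyms. Alternatives were no level filter, a filter at 256, 1 prior spread, 1 fit of all 12 libraries, quantile normalization, a replicate block and leaving out each library. No column was left unused.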

Additional observations from a re-analysis of the deposited data

How the results depend on the processing

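The level filters, the prior spread, the block and the fit of all 12 libraries leave the difference of a gene as it is by construction, so for the 5 genes it can move only with quantile normalization or without a library. It moved by more than the SD between replicates with quantile normalization, which gave -1.36 for tgfb1b at 24 hpf and 0.36 for tgfb2 at the 15-somite stage. Without each library in turn, tgfb1b ranged from -2.36 to -1.91 and from -1.42 to -1.38 at the 15-somite stage and 24 hpf, acvrl1 from -0.67 to -0.38 and from -0.40 to -0.22, and tgfb2 from 0.32 to 0.35 and from 0.07 to 0.14. For tgfb1a (-0.21 to 0.09 and -0.12 to 0.11) and tgfb3 (-0.06 to 0.12 and -5.85e-05 to 0.07) the sign was not fixed.

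Counts over all genes depended on the fit. With 1 prior spread, 282 genes were called at the 15-somite stage, 40 at 24 hpf and 273 for the stage difference, in place of 834, 63 and 661. All 12 libraries in 1 fit gave 2006 at the 15-somite stage, and the higher level filter gave 39 at 24 hpf. Leaving out 1 library gave 78 (het 2) to 471, 9 (het 1) to 46, and 235 (24 hpf het 2) to 721. Pathway calls at the 15-somite stage, 2, became 0 with 1 prior spread, 1 with no filter on level, 3 with the higher level filter or all 12 libraries in 1 fit, and 0 to 1 without a library; for the stage difference they became 1 with quantile normalization and 0 to 2 without a library. The replicate block at 24 hpf gave 24 calls; same-numbered libraries there had correlations of -0.002 to 0.10, so the numbers were not treated as pairs, and no blocked fit was possible at the 15-somite stage, where it is not known which of the homozygous columns under 1 shared name is which, leaving hom 2 alone with a number of its own. The cause of these shifts was not tested. Depth is unknown, and tgfb1a and tgfb1b at the 15-somite stage lie under the higher level filter, which gives them no value.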
